A study of Mus musculus with 17 samples.

Results

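The genes described here are 7 renal tubule and kidney lineage genes that a mouse podocyte line expressed: Cdh16, Lrp2, Cubn, Pax8, Pax2, Aqp1 and Gpx3. They were taken by name and matched by symbol to the Ensembl identifiers of the count table. All 7 were found among its 56748 genes, and all 7 were among the 15196 genes with enough counts to be tested. None of them changed past the threshold between the 3 surfaces on which the cells grew. Their levels, which ran from near the top to near the bottom of the genes tested, are given below library by library.

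The cells were E11, an established line of mouse podocytes, the epithelial cells that cover the glomerular capillaries, and all of them were grown on silicone (PDMS). In HF (6 libraries) the silicone carried a topography of high fractal dimension traced from healthy glomeruli, in RT (6 libraries) a round topography without a fractal pattern, and in NT (5 libraries) none. The labels name no gene edit, drug or time point that sets the groups apart. What separates one replicate from another is not stated, and the p-values below therefore speak of how far these libraries differ, which can be a technical difference alone.

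Total counts ran from 14.9 to 24.1 M per library. The podocyte label was checked against 18 marker genes, of which 13 were tested. Synpo (synaptopodin), Podxl (podocalyxin) and Wt1 were present, at 263 ± 8.18, 126 ± 9.80 and 103 ± 5.22 CPM (counts per 1 M counts of a library) in HF libraries (SD, n = 6). Tcf21, a factor of podocyte development, had no count. The summed level of the podocyte markers ran from 1835 to 1883 CPM in HF, from 1829 to 1887 CPM in RT and from 1759 to 1897 CPM in NT. Markers of other cells were mixed. Of the parietal list, Akap12 averaged 2482 ± 95.8 CPM and Cd24a 758 ± 40.9 CPM in HF (SD, n = 6). The list's sum, given below, lay above that of the podocyte list in every group, but these 2 genes made up most of it. Cldn2, Ncam1 and Cldn1 averaged 394, 264 and 181 CPM in HF, while Krt8 had at most 25 counts and Krt18 none. Sums over lists of different genes do not rank cell types. Of the mesangial and smooth muscle list, Pdgfrb (a growth factor receptor of pericytes) averaged 478 ± 14.0 CPM and Acta2 364 ± 42.2 CPM in HF. The rest of that list was low: Gata3, Tagln, Pdgfra and Des averaged 5.08, 4.25, 1.31 and 0.440 CPM in HF. Itga8, Cspg4 and Myh11 had at most 5, 6 and 14 counts, and Ren1 none. Of the endothelial list, Ehd3 averaged 77.5 ± 3.40 CPM in HF. The endothelial genes Pecam1 and Cdh5 had at most 4 and 1 counts, and the leukocyte gene Ptprc at most 3. The summed level of 8 immune genes, of which 2 were tested, ran from 41.0 to 55.3 CPM in HF, from 46.8 to 59.3 CPM in RT and from 38.1 to 42.7 CPM in NT, nearly all of it Csf1r, a growth factor receptor of macrophages (called up in RT against NT, 0.36 ± 0.07 log2, SE, edgeR adjusted p = 0.00385). These libraries hold RNA of whole cultures, in which fewer cells of a type and less RNA per cell cannot be told apart.

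The proximal tubule takes filtered protein back from the urine through megalin (Lrp2) and cubilin (Cubn), a pair of giant receptors that work as one endocytic complex. The same segment carries the water channel aquaporin 1 (Aqp1) and releases glutathione peroxidase 3 (Gpx3), a selenoprotein of plasma, while Ksp-cadherin (Cdh16) joins tubule cells to each other. Pax2 and Pax8 are paired-box transcription factors that set up the kidney lineage in the embryo; in the mature glomerulus they are known from parietal cells rather than podocytes.

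Per kilobase of exons, which makes levels of different genes comparable, Gpx3 stood highest at 801 ± 66.4 CPM per kb (SD over all 17 libraries). It ranked 17 among 14941 tested genes with a length. Cdh16 followed at 257 ± 8.29, Aqp1 at 90.5 ± 16.5, Pax2 at 66.9 ± 2.68, Pax8 at 53.9 ± 2.53 and Lrp2 at 23.9 ± 3.17 CPM per kb. These 6 genes lay above 85.3% to 99.9% of the tested genes with a length. Cubn stood at 0.346 ± 0.0718 CPM per kb and lay above 7.81% of those tested genes, so the description of these genes as abundant does not hold for Cubn.

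The order of neighbouring genes was the same in 17 of 17 libraries for every pair except Aqp1 and Pax2, where Aqp1 was the higher in 15 of 17. Lengths from the longest transcript in place of all exons, a choice made after seeing the data, put Pax8 (96.6 CPM per kb) above Aqp1 (90.5) and Pax2 (83.1), so the order of these 3 genes depends on the length used. Gpx3, Cdh16, Lrp2 and Cubn kept their places with 911, 334, 25.8 and 0.458 CPM per kb.

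**Figure D1:**
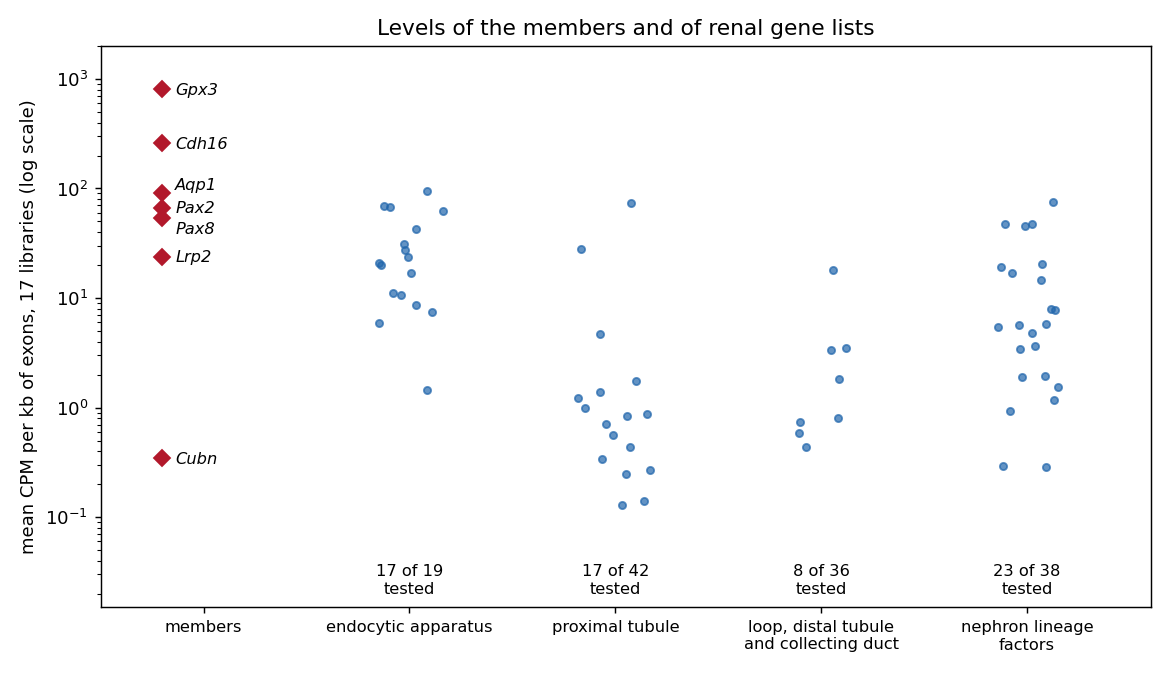
Mean level over the 17 libraries in CPM per kb of exons, on a log axis, for the 7 genes (diamonds) and for the tested genes of 4 lists of renal genes (points, each 1 gene, spread sideways only to be seen). Gpx3 and Cdh16 stand above every gene of the 4 lists, and Cubn lies among the lower proximal tubule genes.

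Most other genes of the tubule were not at such levels. Of 42 proximal tubule genes listed for comparison 17 passed the count filter, and of 36 genes of the loop, distal tubule and collecting duct 8 did. Slc34a1, the main phosphate transporter of the proximal tubule, had 0 counts in all 17 libraries, where a count of 0 allows up to 0.125 to 0.201 CPM (3 counts of a library's total, for counting error only). Only Enpep (74.1 CPM per kb, an aminopeptidase of the brush border that podocytes also carry) and Mme (28.2 CPM per kb, neprilysin, likewise known from podocytes) among the 17 exceeded Lrp2.

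Between the surfaces, edgeR's quasi-likelihood test with Benjamini-Hochberg adjustment over all genes called 0 of the 7 in HF against NT, where it called 2.33% of the genes tested. It called 0 of 7 in HF against RT, where the share over all genes was 0.211%, and 0 of 7 in RT against NT, where it was 3.97%. Each group served in 2 of these comparisons, so they are not independent of each other. At an unadjusted p under 0.05 there were 2 of the 7 in HF against NT (Pax8 and Aqp1), 1 in HF against RT (Gpx3) and 1 in RT against NT (Gpx3), beside 14.2%, 8.0% and 17.1% of all genes. DESeq2 called 0, 1 (Gpx3) and 0 of the 7, and limma voom 0 in each comparison.

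The values of the 2 groups overlapped for all 7 genes in every comparison. Over all genes, 2.18% did not overlap in HF against NT, 0.967% in HF against RT and 3.4% in RT against NT. The median log2 fold change of the 7 was 0.01, 0.01 and 0.00, and their median absolute log2 fold change was 0.05, 0.04 and 0.04, beside 0.07, 0.06 and 0.07 over all genes tested.

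**Figure D2:**
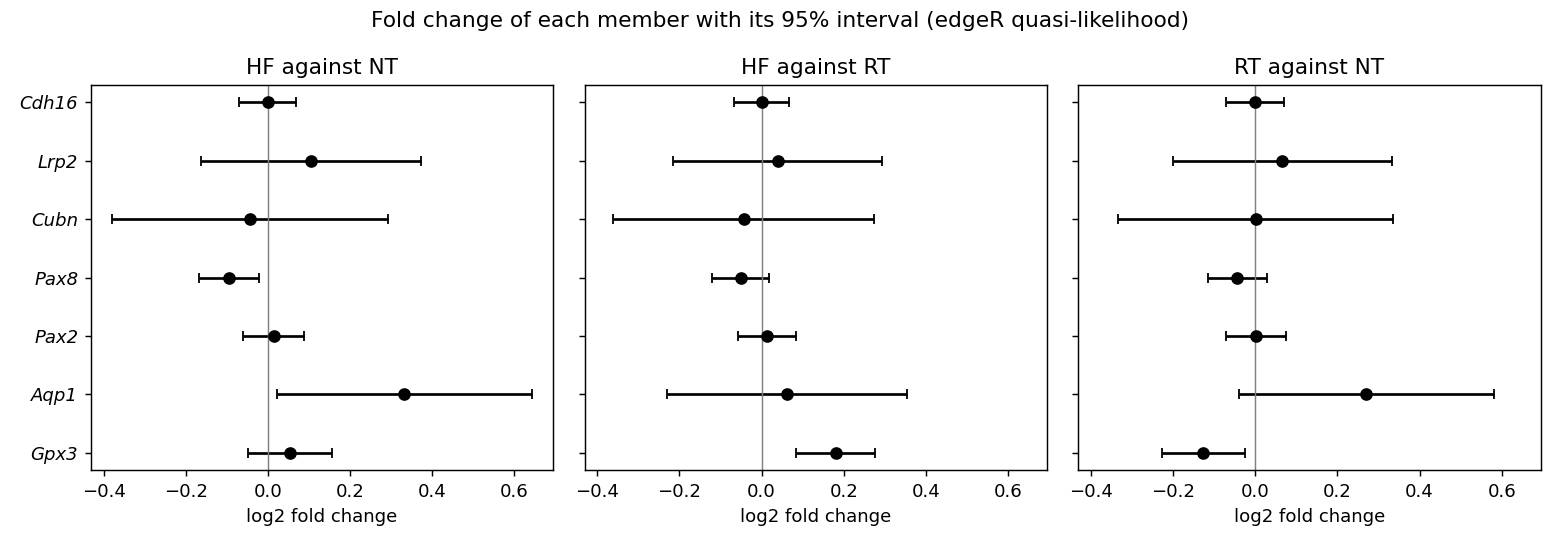
Log2 fold change of each of the 7 genes (points) with its 95% interval (bars) in the 3 comparisons (positive: higher in the group named first), from edgeR over 17 libraries and before any adjustment over genes. Intervals are narrow for Cdh16 and Pax2 around 0 and widest for Cubn; those of Pax8 and Aqp1 in HF against NT and of Gpx3 in HF against RT and RT against NT leave out 0, but no adjusted p passed the threshold.

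Cdh16 (ENSMUSG00000031881, chromosome 8) encodes Ksp-cadherin, an adhesion protein of the lateral membrane of tubule cells. It ran from 922 to 1011 CPM in HF libraries with a median of 991, from 957 to 1013 CPM in RT libraries with a median of 971, and stood at 955, 1029.8, 929, 987 and 982 CPM in NT 1 to NT 5. The 3 groups overlapped, though 2 HF libraries lay below every RT library and NT 2 lay above every HF and RT library. The means were 976 ± 40.6 CPM in HF (SD, n = 6), 976 ± 19.2 CPM in RT (SD, n = 6) and 977 ± 37.8 CPM in NT (SD, n = 5). The fold of HF over NT was 1.00 with a 95% interval of 0.952 to 1.05, and that of HF over RT was 1.00 with an interval of 0.955 to 1.05, so the intervals leave out changes of more than about that size (edgeR adjusted p = 0.996 and 0.999).

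Other cadherins of kidney epithelium moved in part. Of 12 listed cadherins and catenins 8 were tested, and E-cadherin (Cdh1), the cadherin of distal tubule and collecting duct, had at most 2 counts in any library. In HF against NT 0 rose and 2 fell, which were Cdh2 (N-cadherin, -0.13 ± 0.04 log2, SE, edgeR adjusted p = 0.0417) and Cdh11 (a mesenchymal cadherin, -0.14 ± 0.04 log2, SE, edgeR adjusted p = 0.0397). Leaving out any of 7 single libraries for Cdh2, or any of 8 for Cdh11, ended these calls (adjusted p up to 0.111 and 0.119). Cdh6, a cadherin of the early nephron and proximal tubule, averaged 359 ± 10.6 CPM in HF, 400.1 ± 15.2 CPM in RT (SD, n = 6 each) and 361 ± 22.7 CPM in NT (SD, n = 5). It rose in RT against NT (0.15 ± 0.04 log2, SE, edgeR adjusted p = 0.0157) and fell in HF against RT (-0.16 ± 0.04 log2, SE, edgeR adjusted p = 0.0474), the second being lost without any of 9 single libraries (adjusted p up to 0.146). Ctnnb1 (beta-catenin), Ctnna1 and Jup, which link cadherins to the cytoskeleton, were tested and not called. The list's median log2 fold change was -0.05, -0.04 and -0.02 in the 3 comparisons.

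**Figure D3:**
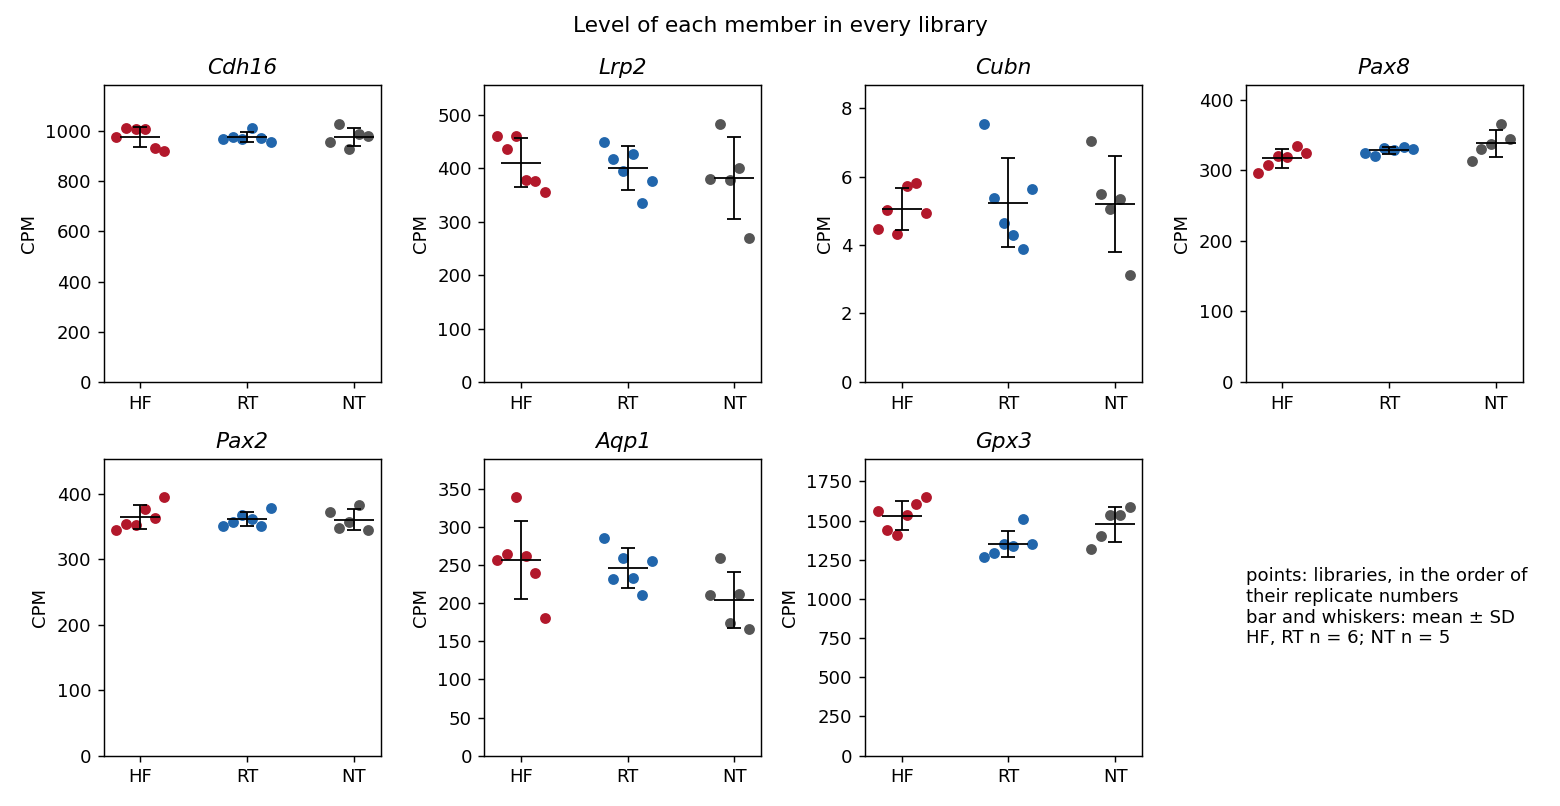
CPM of each of the 7 genes in every library, in panels with the groups HF (n = 6), RT (n = 6) and NT (n = 5) from left to right; points are libraries in the order of their replicate numbers, and bars with whiskers are means ± SD. Every axis starts at 0. The groups overlap in all 7 panels, most tightly for Cdh16, and for Gpx3 the RT mean is the lowest of the 3.

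Lrp2 (ENSMUSG00000027070) and Cubn (ENSMUSG00000026726), both on chromosome 2, encode the receptors megalin and cubilin. Megalin spans the membrane and is internalised by clathrin-coated pits. Cubilin has no segment in the membrane and reaches the surface through amnionless (Amn). The stretches just before their transcription starts are shown because the pair stood so far apart in level. Any link between these sequences and the levels was not tested. They are from RefSeq on build GRCm38.p6, 250 bases up to the start on the minus strand in both genes, read 5′ to 3′. Lrp2 lies at chr2:69586030-69586279 and Cubn at chr2:13491877-13492126, and capitals mark the GC box, searched as GGGCGG on both strands.
Lrp2: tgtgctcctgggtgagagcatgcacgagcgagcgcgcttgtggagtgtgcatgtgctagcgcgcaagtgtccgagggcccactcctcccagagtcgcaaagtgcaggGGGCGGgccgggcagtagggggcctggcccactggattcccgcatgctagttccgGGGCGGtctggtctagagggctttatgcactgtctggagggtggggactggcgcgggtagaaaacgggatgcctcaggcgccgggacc
Cubn: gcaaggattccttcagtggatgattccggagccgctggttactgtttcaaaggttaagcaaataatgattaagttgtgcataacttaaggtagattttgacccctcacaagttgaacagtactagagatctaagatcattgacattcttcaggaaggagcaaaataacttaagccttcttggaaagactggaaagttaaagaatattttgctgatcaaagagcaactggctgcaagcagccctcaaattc
The Lrp2 window held 2 GC boxes and was 66.4% G and C, and the Cubn window held 0 and was 39.6% G and C. Among all 32851 windows of this length, 32.7% held a GC box, and their median was 52.4% G and C. The TATA box TATAAA (12.4% of windows), searched on both strands and sharing no stretch with the GC box, was in neither, which says only that these letters are not there.

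Lrp2 ran from 356 to 460.2 CPM in HF libraries with a median of 407, from 335 to 449 CPM in RT libraries with a median of 407, and stood at 381, 484, 378, 400.1 and 269.9 CPM in NT 1 to NT 5. The highest and the lowest of all 17 libraries were both NT, so the groups overlapped throughout. The means were 411 ± 46.6 CPM in HF (SD, n = 6), 400.4 ± 40.8 CPM in RT (SD, n = 6) and 382 ± 76.3 CPM in NT (SD, n = 5). The fold of HF over NT was 1.08 with a 95% interval of 0.894 to 1.29 (edgeR adjusted p = 0.779). It depended on single NT libraries: the log2 fold change was 0.11, and 0.0017 without NT 5 and 0.20 without NT 2.

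Cubn ran from 4.31 to 5.80 CPM in HF libraries with a median of 4.98, from 3.90 to 7.55 CPM in RT libraries with a median of 5.02, and stood at 7.04, 5.48, 5.04, 5.35 and 3.13 CPM in NT 1 to NT 5. All 6 HF libraries lay inside the range of NT. These levels rest on 54 to 135 counts per library, and 2.46% of the exon bases of Cubn overlap another gene, Gm13270. The means were 5.04 ± 0.617 CPM in HF (SD, n = 6), 5.24 ± 1.31 CPM in RT (SD, n = 6) and 5.21 ± 1.40 CPM in NT (SD, n = 5). The interval of the fold of HF over NT was wide, from 0.769 to 1.23 (edgeR adjusted p = 0.944), so a change within it could not be told from none in these libraries.

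Per kilobase Lrp2 stood 69.1 times as high as Cubn. Within single libraries the ratio of their counts ran from 54.0 to 107. On the log2 scale it averaged 6.35 ± 0.32 in HF (SD, n = 6), 6.28 ± 0.27 in RT (SD, n = 6) and 6.22 ± 0.28 in NT (SD, n = 5). The difference of HF minus NT was 0.13, smaller than the spread between libraries (exact two-sided permutation test, p = 0.468, adjusted p = 0.701 over 6 tests). HF minus RT was 0.07 and RT minus NT 0.06 (exact permutation tests, adjusted p = 0.701 for each). The third part of the complex was lower still: Amn had 1 to 7 counts per library, 45 counts in all 17 libraries beside 1542 of Cubn and 119421 of Lrp2, and did not pass the filter.

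The endocytic apparatus that carries these receptors was well expressed. Of 19 listed genes 17 were tested. Ap2m1 (a subunit of the clathrin adaptor AP2) stood at 94.2, Cltc (clathrin heavy chain) at 68.8 and Lrpap1 (the chaperone RAP, which folds megalin) at 67.6 CPM per kb. Dab2, the adaptor that binds megalin's tail, averaged 150.4 ± 7.26 CPM in HF, 156 ± 9.15 CPM in RT (SD, n = 6 each) and 149.6 ± 11.03 CPM in NT (SD, n = 5), and was not called in any comparison. None of the 17 was called in HF against NT or in HF against RT, where 5 and 1 had an unadjusted p under 0.05 (lowest edgeR adjusted p = 0.143 and 0.589). In RT against NT 2 rose and 0 fell: Clcn5, the chloride-proton exchanger of endosomes (0.18 ± 0.05 log2, SE, edgeR adjusted p = 0.0446), and Gipc1, which ties megalin to myosin VI (0.16 ± 0.05 log2, SE, edgeR adjusted p = 0.0405). Both calls were lost without single libraries, 7 of them for Clcn5 and 8 for Gipc1 (adjusted p up to 0.111 and 0.158). The list's median log2 fold change was 0.02, -0.02 and 0.06, beside 0.00 over all genes in each comparison.

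Among the other receptors of the LDL receptor family 12 of 13 were tested. Lrp1, the family's widespread giant member, stood at 146, Lrp10 at 36.3 and Lrp6, a Wnt co-receptor, at 22.9 CPM per kb, so Lrp1 and Lrp10 were above Lrp2 on this scale. Vldlr, a receptor of triglyceride-rich lipoproteins, was the only one called and rose in HF against NT, with 171 ± 5.00 CPM in HF (SD, n = 6) and 154 ± 10.7 CPM in NT (SD, n = 5). Its log2 fold change was 0.15 ± 0.04 (SE, edgeR adjusted p = 0.0311), with no overlap between the libraries, and the call was lost without any of 5 single libraries (adjusted p up to 0.0850). In HF against RT and RT against NT edgeR called 0 of 12, with 3 at an unadjusted p under 0.05 in each.

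Pax8 (ENSMUSG00000026976, chromosome 2) ran from 296 to 334 CPM in HF libraries with a median of 319.7, from 321 to 332 CPM in RT libraries with a median of 329, and stood at 313, 329.7, 337, 366 and 345 CPM in NT 1 to NT 5. All 6 HF libraries lay below the NT median, but only 2 lay below every NT library. The means were 317 ± 13.4 CPM in HF (SD, n = 6), 328 ± 4.45 CPM in RT (SD, n = 6) and 338 ± 19.5 CPM in NT (SD, n = 5). The fold of HF over NT was 0.937 with a 95% interval of 0.891 to 0.985 (log2 -0.09 ± 0.04, SE; unadjusted p = 0.0125, adjusted p = 0.182 by edgeR), which did not pass the threshold. In 19 alternatives it had the same sign each time and did not pass in any (adjusted p 0.0541 to 0.462). In 6.06% of its exon bases Pax8 overlaps another gene, Gm13415, and the library kit keeps no strand, so reads there cannot be assigned to one or the other.

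Pax2 (ENSMUSG00000004231, chromosome 19) ran from 345 to 395 CPM in HF libraries with a median of 359, from 351 to 379 CPM in RT libraries with a median of 359, and stood at 372, 347, 357, 382 and 344 CPM in NT 1 to NT 5. The groups overlapped throughout. The means were 364 ± 18.3 CPM in HF (SD, n = 6), 361 ± 10.8 CPM in RT (SD, n = 6) and 361 ± 16.3 CPM in NT (SD, n = 5), and the fold of HF over NT was 1.01 with an interval of 0.960 to 1.06 (edgeR adjusted p = 0.909).

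The paralogs were expressed at nearly equal counts: the ratio of Pax8 to Pax2 ran from 0.821 to 1.00 within libraries. Its log2 value averaged -0.20 ± 0.06 in HF (SD, n = 6), -0.14 ± 0.04 in RT (SD, n = 6) and -0.09 ± 0.09 in NT (SD, n = 5). HF minus NT was -0.11 (exact two-sided permutation test, p = 0.0433, adjusted p = 0.227), HF minus RT -0.06 (exact p = 0.0758, adjusted p = 0.227) and RT minus NT -0.04 (exact p = 0.316, adjusted p = 0.632). None passed after adjustment over the 6 ratio tests. In HF against RT, with 6 libraries in each group, the smallest possible p of the exact permutation test is 0.00216.

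**Figure D4:**
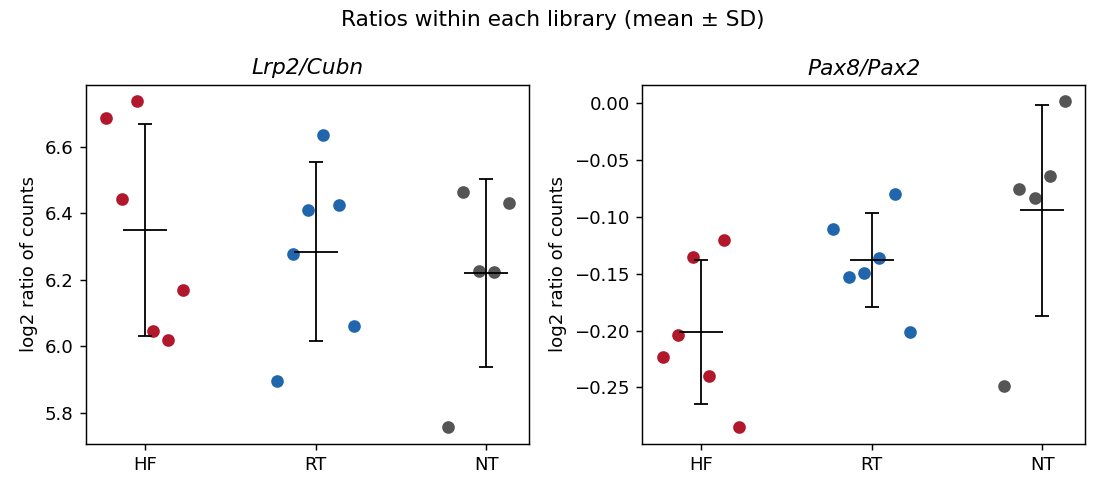
Log2 ratio of the counts of Lrp2 to Cubn (left) and of Pax8 to Pax2 (right) within each library; points are libraries of HF, RT and NT from left to right in the order of their replicate numbers, and bars with whiskers are means ± SD. The axes do not start at 0. The groups overlap in both panels; for Pax8 over Pax2 the HF mean is the lowest at -0.20, and NT 1 lies among the HF libraries.

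Of 38 genes listed as regulators of the nephron lineage 23 were tested. Jag1 (a Notch ligand) stood at 47.3, Spry1 (an inhibitor of receptor tyrosine kinase signals) at 47.2 and Foxc1, a forkhead factor, at 45.3 CPM per kb, while Six2 of the nephron progenitor and Wnt9b of the ureteric bud had no count. In HF against NT 1 rose and 1 fell. Gdnf, the growth factor that draws out the ureteric bud, averaged 7.0 ± 0.838 CPM in HF (SD, n = 6) and 4.53 ± 0.737 CPM in NT (SD, n = 5), with no overlap (0.62 ± 0.12 log2, SE, edgeR adjusted p = 0.00344). Wt1, the factor that drives nephron formation and later marks podocytes, averaged 103 ± 5.22 CPM in HF and 115 ± 3.02 CPM in NT (-0.16 ± 0.04 log2, SE, edgeR adjusted p = 0.0113).

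In HF against RT 0 of the 23 rose and Jag1 fell, with 261 ± 12.4 CPM in HF and 297 ± 11.1 CPM in RT (SD, n = 6 each; -0.19 ± 0.04 log2, SE, edgeR adjusted p = 0.0252), a call lost without any of 8 single libraries (adjusted p up to 0.0947). In RT against NT 3 rose and 1 fell. Among the rises were Jag1 (0.15 ± 0.04 log2, SE, edgeR adjusted p = 0.0245) and Spry1 (0.18 ± 0.04 log2, SE, adjusted p = 0.0121), and the fall was Wt1 (-0.24 ± 0.04 log2, SE, adjusted p = 6.16e-05). The Jag1 call was lost without any of 5 libraries and the Spry1 call without NT 3 (adjusted p up to 0.0709 and 0.0556). The list's median log2 fold change was -0.01, -0.01 and 0.03.

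The Pax family's other members and its co-factors showed no call. Of 18 listed genes 11 were tested. Among them were Wbp2 (62.0 CPM per kb), Kmt2d (21.0 CPM per kb) and Kmt2b (16.3 CPM per kb), the last 2 encoding histone methyltransferases. Pax9 was the only other Pax gene that passed the filter, at 5.09 CPM per kb. By edgeR 0 of 11 were called in each comparison, with 2, 1 and 1 at an unadjusted p under 0.05 (lowest adjusted p = 0.291, 0.471 and 0.281).

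Since parietal cells are the glomerular cells that keep Pax2 and Pax8, their markers stand beside them. Of 11 parietal genes 8 were tested, with Krt18 and Wfdc2 at 0, and their summed level ran from 4012 to 4238 CPM in HF, from 4094 to 4298 CPM in RT and from 4064 to 4299 CPM in NT. Ncam1, an adhesion molecule, fell in HF against NT (-0.23 ± 0.03 log2, SE, edgeR adjusted p = 2.53e-05) and in HF against RT (-0.15 ± 0.03 log2, SE, adjusted p = 0.0109). Cldn1, a tight junction claudin, fell in RT against NT (-0.21 ± 0.05 log2, SE, adjusted p = 0.0157), as did Clic5 of the podocyte list (-0.47 ± 0.09 log2, SE, adjusted p = 0.00167). Their part in the levels of Pax8 and Pax2 was not tested.

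Aqp1 (ENSMUSG00000004655, chromosome 6) encodes the water channel of the proximal tubule and thin descending limb, which endothelium also carries. It ran from 180.4 to 339 CPM in HF libraries with a median of 259, from 211 to 286 CPM in RT libraries with a median of 244, and stood at 210.1, 259, 174, 212 and 166 CPM in NT 1 to NT 5. All 6 RT libraries and 5 of 6 HF libraries lay above the NT median, and 3 HF libraries above every NT library, while HF 6 was lower than 3 of them. The means were 257 ± 50.9 CPM in HF (SD, n = 6), 246 ± 26.4 CPM in RT (SD, n = 6) and 204 ± 37.1 CPM in NT (SD, n = 5).

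The fold of Aqp1 in HF over NT was 1.26 with a 95% interval of 1.02 to 1.56 (log2 0.33 ± 0.15, SE; unadjusted p = 0.0373, adjusted p = 0.309 by edgeR), and in RT over NT it was 1.21 with an interval of 0.973 to 1.495 (adjusted p = 0.377). Neither passed the threshold in any of 19 alternatives, in all of which both were positive. HF over RT was 1.04 with an interval of 0.853 to 1.28 (adjusted p = 0.969).

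Markers of other cells stand beside this. The summed level of 10 mesangial and smooth muscle genes, of which 6 were tested, ran from 813 to 887 CPM in HF, from 785 to 859 CPM in RT and from 684 to 775 CPM in NT. Nearly all of this sum was Pdgfrb, at 478, 457 and 478 CPM in HF, RT and NT, and Acta2, at 364, 363 and 261 CPM. Acta2 (smooth muscle actin) was called up in HF against NT and RT against NT (0.48 ± 0.10 log2, SE, edgeR adjusted p = 0.0171, and 0.48 ± 0.10, adjusted p = 0.0121). The Acta2 call in HF against NT was lost in a fit of HF and NT alone (adjusted p = 0.0750). Tagln, another smooth muscle gene, rose in RT against NT (0.41 ± 0.12 log2, SE, edgeR adjusted p = 0.0453), a call lost without any of 10 single libraries (adjusted p up to 0.151). The sum of 10 endothelial genes, of which 2 were tested, ran from 72.7 to 82.9 CPM in HF, from 72.8 to 82.2 CPM in RT and from 75.7 to 81.6 CPM in NT. Nearly all of it was Ehd3, with Kdr and Tie1 at 0. Whether cells of these types were present, and any part of theirs in the level of Aqp1, was not tested.

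Aqp1 was the one aquaporin at a sizeable level. Of 11 other aquaporins Aqp11, an aquaporin of the endoplasmic reticulum in proximal tubule cells, alone passed the filter, at 0.129 CPM per kb, and was not called (edgeR adjusted p 0.973, 0.987 and 0.997 in the 3 comparisons; 0 at an unadjusted p under 0.05). Aqp2, the channel of collecting duct that vasopressin controls, had no count.

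Several low proximal tubule genes were higher on both topographies than on the flat surface. Of the 17 tested, 4 rose and 0 fell in HF against NT, and 6 rose and 1 fell in RT against NT. Over all genes tested, edgeR called 2.33% and 3.97% in these comparisons. The list was chosen with earlier results of these data known, so its counts and its median below are description only. The count filter asked for enough counts in part of the libraries, so a gene low in NT could enter through HF and RT alone. Hnf4a, at 0.299 CPM in NT, was one of these. Such entry tilts the counts and the median towards rises. Slc6a18, a brush border transporter of neutral amino acids, stood at 7.07 ± 2.75 CPM in RT (SD, n = 6) and 0.907 ± 0.586 CPM in NT (SD, n = 5), with no overlap (2.99 ± 0.56 log2, SE, edgeR adjusted p = 0.00718), and it rose in HF against NT as well (3.07 ± 0.56 log2, SE, adjusted p = 0.00967). Ggt1, which breaks down glutathione at the brush border, averaged 1.95 ± 0.280 CPM in HF, 2.63 ± 0.449 CPM in RT (SD, n = 6 each) and 1.02 ± 0.256 CPM in NT (SD, n = 5), with no overlap of either topography with NT (edgeR adjusted p = 0.0114 and 6.48e-05).

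Cyp2j5, a renal cytochrome P450, averaged 2.53 ± 0.827 CPM in HF, 3.38 ± 1.05 CPM in RT (SD, n = 6 each) and 0.831 ± 0.401 CPM in NT (SD, n = 5; edgeR adjusted p = 0.00303 and 8.79e-05 against NT). Acsm2, an acyl-CoA synthetase of kidney, rose in HF against NT (0.49 ± 0.13 log2, SE, edgeR adjusted p = 0.0422) and in RT against NT (1.03 ± 0.13 log2, SE, adjusted p = 5.93e-06), and it fell in HF against RT (-0.54 ± 0.12 log2, SE, adjusted p = 0.0342). The call in HF against NT was lost without any of 9 single libraries and that in HF against RT without any of 8 (adjusted p up to 0.114 and 0.121). Hnf4a, the master regulator of proximal tubule, rose in RT against NT at a low level, 0.823 ± 0.323 CPM in RT and 0.299 ± 0.207 CPM in NT (edgeR adjusted p = 0.0252), and lost the call without any of 4 libraries (adjusted p up to 0.102). Mme rose in RT against NT (0.45 ± 0.07 log2, SE, adjusted p = 0.00168) and Enpep fell (-0.17 ± 0.04 log2, SE, adjusted p = 0.00914). The list's median log2 fold change was 0.23 in HF against NT, 0.03 in HF against RT and 0.24 in RT against NT, beside 0.00 over all genes in each.

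Among the 8 tested genes of the loop, distal tubule and collecting duct, Tfcp2l1, a factor of collecting duct, stood highest at 17.97, then Hsd11b2 at 3.51 and Kcnj16 at 3.38 CPM per kb. Kcnj16, a potassium channel subunit of the distal tubule, fell in HF against NT, with 11.3 ± 0.882 CPM in HF (SD, n = 6) and 14.3 ± 1.97 CPM in NT (SD, n = 5; edgeR adjusted p = 0.0298), and lost the call without any of 6 single libraries (adjusted p up to 0.155). No other was called. In HF against RT and RT against NT edgeR called 0 of 8, with 1 at an unadjusted p under 0.05 in each.

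Gpx3 (ENSMUSG00000018339, chromosome 11) encodes the glutathione peroxidase that proximal tubule cells secrete into plasma. Its window before the start is shown because it was the highest of the 7 genes and the one with the smallest p. It is from RefSeq on build GRCm38.p6, chr11:54902604-54902853, plus strand, 5′ to 3′, with the GC box GGGCGG of either strand in capitals.
Gpx3: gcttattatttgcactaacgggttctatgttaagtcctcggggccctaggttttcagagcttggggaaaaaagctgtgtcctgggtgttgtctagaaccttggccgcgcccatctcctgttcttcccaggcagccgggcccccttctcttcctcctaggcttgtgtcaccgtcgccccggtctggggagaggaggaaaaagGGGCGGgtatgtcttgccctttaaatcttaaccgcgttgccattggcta
It held 1 GC box and no TATA box TATAAA, and 55.2% of it was G and C. Any link of this sequence to the level of Gpx3 was not tested.

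Gpx3 ran from 1406 to 1648 CPM in HF libraries with a median of 1549, from 1266 to 1509 CPM in RT libraries with a median of 1344, and stood at 1319, 1399.9, 1536, 1537 and 1589 CPM in NT 1 to NT 5. All 6 HF libraries lay above the RT median and 4 lay above every RT library; the exception among RT libraries was RT 5 at 1509 CPM, the next being at 1352. The means were 1532 ± 93.9 CPM in HF (SD, n = 6), 1352 ± 83.9 CPM in RT (SD, n = 6) and 1476 ± 112 CPM in NT (SD, n = 5).

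The fold of Gpx3 in HF over RT was 1.13 with a 95% interval of 1.06 to 1.21 (log2 0.18 ± 0.05, SE; unadjusted p = 0.000673, adjusted p = 0.124 by edgeR), which did not pass the threshold over all genes. The call depended on the processing. It passed in 5 of 20 alternatives, with DESeq2 (adjusted p = 0.0374), with no filter on low counts (2.61e-05), with the replicate number as a block (0.00441), without RT 5 (0.0249) and without HF 3 (0.0298), and over the 20 the adjusted p ran from 2.61e-05 to 0.469. The sign was the same in all 20.

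In RT over NT the fold of Gpx3 was 0.916 with an interval of 0.854 to 0.982 (unadjusted p = 0.0160, adjusted p = 0.167 by edgeR). It passed in 4 of 19 alternatives: no filter (0.0104), the replicate block (0.0184), without NT 1 (0.0403) and without RT 5 (0.0423). HF over NT was 1.04 with an interval of 0.968 to 1.11 (adjusted p = 0.693). Gpx3 was thus highest in HF, lowest in RT and between them in NT by the means, with no difference past the threshold.

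No other glutathione peroxidase and no gene of selenoprotein supply was called. Of 20 listed genes 16 were tested, and edgeR called 0 in each comparison, with 1, 2 and 3 at an unadjusted p under 0.05 (lowest adjusted p = 0.350, 0.490 and 0.0706). Gpx4, which protects membrane lipids, was the highest at 215 CPM per kb, followed by Selenow at 88.6 and Selenop, the plasma carrier of selenium, at 73.5. Gpx3 stood above all of them. The level of Gpx1, the peroxidase of the cytosol, was 9.92 CPM per kb.

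How far the libraries of one group differed varied among the 7 genes. The coefficient of variation of Cdh16 was 4.16% in HF, 1.97% in RT and 3.87% in NT, and that of Pax8 4.23%, 1.36% and 5.77%. It was 19.8%, 10.7% and 18.2% for Aqp1, 11.3%, 10.2% and 20.0% for Lrp2, and 6.13%, 6.21% and 7.62% for Gpx3. The median over the 2496 genes of at least 100 CPM was 3.47% in HF, 3.30% in RT and 5.27% in NT, so Aqp1, Lrp2 and Gpx3 lay above that median in all 3 groups. NT 5 was the lowest of all 17 libraries for Lrp2, Cubn, Pax2 and Aqp1.

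Over the 15 libraries numbered 1 to 5, the spread of log2 CPM (its sum of squares) was divided into a share between surfaces, a share between replicate numbers and the remainder. The surface took 46.6% for Aqp1, 38.4% for Gpx3 and 34.7% for Pax8, against a median of 15.6% over all genes, and 2.34% for Cdh16, 1.26% for Pax2 and 0.0127% for Cubn. The replicate number took 60.9% for Lrp2, a share larger than in 94.1% of genes, and 20.3% to 47.2% for the others, with a median of 28.6% over all genes. What the numbers stand for is not stated.

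**Figure D5:**
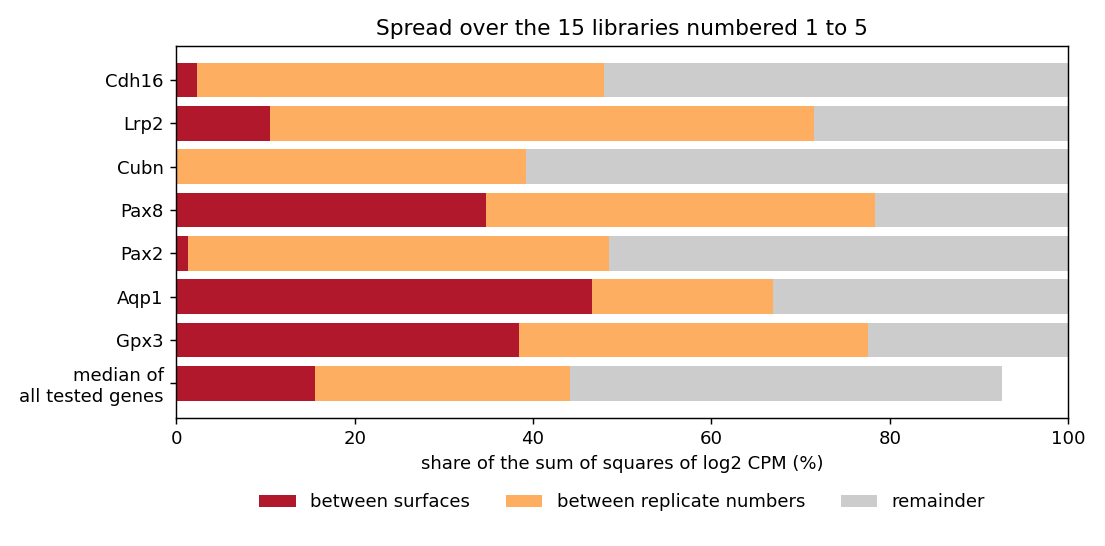
Share of the spread of log2 CPM, as sums of squares, that lies between surfaces, between replicate numbers and in the remainder, for each of the 7 genes and as medians over all tested genes, over the 15 libraries numbered 1 to 5. The 3 medians need not add up to 100%. With 5 numbers but 3 surfaces, the number share tends to be the larger by design. Surface takes most for Aqp1 (46.6%) and least for Cubn (0.0127%), and the number most for Lrp2 (60.9%).

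The 7 genes did not vary as one group over the libraries. The highest Pearson correlation of log2 CPM between any 2 of them over the 17 libraries was 0.741, for Lrp2 and Aqp1, and the lowest was -0.493, for Aqp1 and Gpx3. Among 10975 named genes of average log2 CPM of at least 1, those most like Lrp2 were Crim1 (r = 0.917), Gxylt2 (0.905) and Samd4 (0.888), and those most like Aqp1 were Col5a2 (0.899), Npnt (0.887) and Fam198b (0.879). Pax8 was most like Foxc1 (0.889), Dalrd3 (0.789) and Synpo (0.782), and Pax2 most like Numa1 (0.853), Ints1 (0.853) and Cic (0.852). Cdh16 was most like Podn (0.843), Pdgfa (0.821) and Bmp4 (0.794), Cubn most like Map3k3 (0.855), Arfgef1 (0.825) and Celf1 (0.824), and Gpx3 most like Zfp36l1 (0.843), Itm2b (0.838) and Ndrg1 (0.823). These values describe the 17 libraries, which share groups and depth, and were the top of a search over many genes.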

How the data were processed

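Poly-A RNA of 17 libraries of E11 cells was sequenced in pairs with a non-directional kit, per the labels' protocols. The deposited table holds raw counts per gene and library, which the authors left without normalization. The submitters' processing notes name CASAVA, HISAT2 2.0.5, featureCounts 1.5.0-p3 and the build GRCm39, and the annotation release and strand setting are not given in the sources used here. Every sample column was used. Symbols, exon lengths and overlaps came from GENCODE M21 on GRCm38, so genes are placed only by chromosome. The windows before the starts of Lrp2, Cubn and Gpx3 are the exception, with coordinates on GRCm38.p6. Of 56748 identifiers 52073 had a symbol (the rest held 0.580% of counts).

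After filterByExpr and TMM scaling, edgeR 4.0.16 fitted 1 mean per group to the 17 libraries together, with no covariate and robust estimation, and its quasi-likelihood F test gave two-sided p-values. Benjamini-Hochberg adjustment ran over the 15196 genes tested, with a threshold of 0.05. Fold changes are the first group over the second, and SE is the log2 fold change over the root of F. The fit was first tested on simulated data. The common biological coefficient of variation was 0.0603. For ratios of counts within a library, exact permutation tests (two-sided) were used. Log2 CPM for the spread and the correlations used a prior count of 2. Intervals are 95%.

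The alternatives were other scalings, no filter, DESeq2 1.42.0, limma 3.58.1 (voom), only the 2 groups compared, the replicate number as a block, libraries numbered 1 to 5, each library left out in turn, and, for levels, plain CPM and, added after seeing the data, the longest transcript's length. The 7 genes and the gene lists were chosen with earlier results of these data known. Of each list, the genes named are those past the threshold and up to 3 others of the highest level per kb, and of each of the 7 genes the 3 most correlated. Other list genes named (Dab2, Slc34a1, Amn, Cdh1, Aqp2, Six2, Wnt9b, Gpx1, Pax9 and the cell markers) were chosen after their values were seen. Some list genes are not reported here.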

Additional observations from a re-analysis of the deposited data

Results flagged for a closer look

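Of 27 groups of 4 to 10 libraries tested for a library far from the others (7 genes and 2 ratios, in 3 groups each), 1 stood out, and chance alone marks about 1 in 20 such groups. Gpx3 in RT 5 was at 1509 CPM, while the nearest RT library was at 1352 and the lowest at 1266 CPM. The gap was 0.645 of the range of the 6 RT libraries, beside a critical value of 0.625. Without RT 5 the log2 fold change of Gpx3 in HF against RT was 0.21 (edgeR adjusted p = 0.0249), and in RT against NT -0.16 (adjusted p = 0.0423). RT 5 held 22.4 M counts, the second highest of the 17 libraries. The cause was not tested.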

How the results depend on the processing

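No alternative called any of the 7 genes in HF against NT, and Gpx3 was the only one called elsewhere: 1 of 7 in HF against RT with no filter, DESeq2 or the replicate block, and 1 of 7 in RT against NT with no filter or the replicate block, and 0 to 1 when leaving out single libraries in either. All genes changed numbered 354 in HF against NT, and 597 with no filter, 564 by DESeq2, 200 with only the 2 groups compared, 637 with the replicate block and 202 to 604 leaving out single libraries. They numbered 32 in HF against RT, and 148, 84, 113 and 125 in the same settings, 15 with libraries numbered 1 to 5 and 14 to 89 leaving out single libraries. In RT against NT there were 603, and 995 with the replicate block and 365 to 806 leaving out single libraries. Whether replicate numbers pair the libraries is not stated and was not settled here. The deviations of same-numbered libraries correlated at -0.011 to 0.193, above 0.1 in 2 of 16 pairs. Of the 17 libraries, 8 were most like their own number in the other groups, a count without a chance level beside it. The block changed no other call of the 7 genes.

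Fold changes near 0 turned sign. For Cdh16 in HF against NT (-0.00057) the log2 value was 0.0012 with DESeq2-type size factors, 0.00077 with no filter, 0.0013 by DESeq2, 0.0101 with the replicate block, 0.0149 with libraries numbered 1 to 5 and -0.017 to 0.018 leaving out single libraries. In HF against RT it was -0.00053 by limma voom, -0.00057 with the block and -0.00995 to 0.0163, and in RT against NT 0.00069, 0.00016, 0.0107 and 0.0027 with no filter, voom, the block and libraries numbered 1 to 5, and -0.018 to 0.017. For Pax2 it was -0.0046 and -0.0102 in HF against NT with the block and libraries numbered 1 to 5, and -0.0096 to 0.037. It was -0.0115 to 0.0277 in HF against RT, and in RT against NT -0.0048, -0.0167 and -0.0148 with upper quartile scaling, the block and libraries numbered 1 to 5, and -0.0164 to 0.0234. For Cubn the ranges leaving out single libraries were -0.18 to 0.0898, -0.12 to 0.0800 and -0.14 to 0.13, and in RT against NT it was -0.0059, -0.0043 and -0.0282 with upper quartile scaling, the block and libraries numbered 1 to 5. Leaving out single libraries gave Lrp2 -0.0074 to 0.0775 in HF against RT and -0.0385 to 0.16 in RT against NT, Aqp1 -0.0317 to 0.15 in HF against RT, and the Lrp2 to Cubn ratio -0.0127 to 0.14 and -0.0514 to 0.14 in the same 2 comparisons. The cause was not tested. Of 406 fold changes of the 7 genes under alternatives 342 kept sign and call. Cubn had the fewest counts of the 7 genes.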
